A study of Mus musculus with 8 samples.

Results

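The 9 genes described here encode transcription regulators with known parts in the differentiation of ameloblasts, the epithelial cells that make enamel, of odontoblasts, the mesenchymal cells that make dentin, or of bone. They are the Runt-domain genes Runx1, Runx2 and Runx3, the zinc-finger genes Sp6 and Sp7, the chromatin organizer Satb1, the T-box gene Tbx1, the forkhead gene Foxo1 and the nuclear factor I gene Nfic. They were chosen by name and found in the count tables by their Ensembl identifiers, as 9 of the 17129 genes with enough counts to be tested. They had at least 307 counts in every embryo.

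RNA from lower molars of 8 mouse embryos at E18.5 was sequenced to ask what the loss of Jagged1, a Notch ligand, from the dental epithelium changed. The 4 mutant embryos carried K14:cre and Jagged1 fl/fl, and the 4 control littermates are labelled Jagged1 fl/fl, so that by the labels both groups had the loxP-flanked alleles, while the published text calls the controls WT. The K14 promoter drives Cre in epithelium, which leaves Jagged1 intact in the mesenchyme of the same tooth. Each library joins the molars of both sides of a separate embryo, named J3, J5, J6 and J7 in the control group and K14J26, K14J28, K14J29 and K14J30 in the mutant group.

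Jag1, the deleted gene, had 95.2, 103, 104 and 99.9 CPM (gene counts relative to a library total corrected by TMM) in J3, J5, J6 and J7. Its values in K14J26, K14J28, K14J29 and K14J30 were 34.0, 39.0, 46.0 and 57.1 CPM. Every mutant embryo was below every control embryo, with a log2 difference (mutant over control, as throughout) of -1.19 (SE 0.14, edgeR adjusted p = 0.00517). Libraries held between 17327224 and 29792467 counts, and 3 counts corresponded to at most 0.166 CPM. Whole molars mix epithelium and mesenchyme, so fewer cells of a type and less RNA per cell cannot be told apart in these values.

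Runx proteins bind DNA together with Cbfb, and Runx2 with its downstream factor Sp7 is required for osteoblasts, while Runx2 also acts in the dental mesenchyme. Sp6, also called epiprofin, Satb1 and Tbx1 act in the dental epithelium, where their loss disturbs enamel formation. Foxo1 is a forkhead factor restrained by insulin signalling that ameloblasts need for normal enamel, and Nfic is needed by odontoblasts for root formation.

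Higher values in the mutant with an adjusted p under 0.05 were found for 4 of the 9 (Sp6, Sp7, Satb1 and Foxo1), against 9.52% of all genes tested. Another 3 passed with lower values (Runx2, Runx3 and Tbx1), against 6.61%, and Runx1 and Nfic did not pass. Together 7 of the 9 passed in either direction, where 16.1% of all tested genes did. The 7 became 1 without J7 or K14J29, 2 without J3 or J5, 5 without J6 and 4 without K14J30, and over all genes the calls also became fewer, at 250 higher and 170 lower without K14J29. With log2 differences of 0.5 or more in size at an unadjusted p up to 0.05, a reading of the published criteria, which do not say whether the fold change is on the log2 scale, Satb1 and Foxo1 were the 2 higher genes (8.33% of all genes) and Runx3 and Tbx1 the 2 lower ones (5.85%). All 4 mutant values lay above all 4 control values for 4 of the genes (12.6% of all genes) and below them for 2 (11.6%). By upper-quartile scaling these were 3 and 3 (1780 and 2412 of all genes). By library size only they were 3 and 2 (1359 and 2586 of all genes). The genes had been chosen with earlier results in view, so these shares describe them and were not tested. Their median absolute log2 difference was 0.38, against 0.22 over all tested genes.

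**Figure D1:**
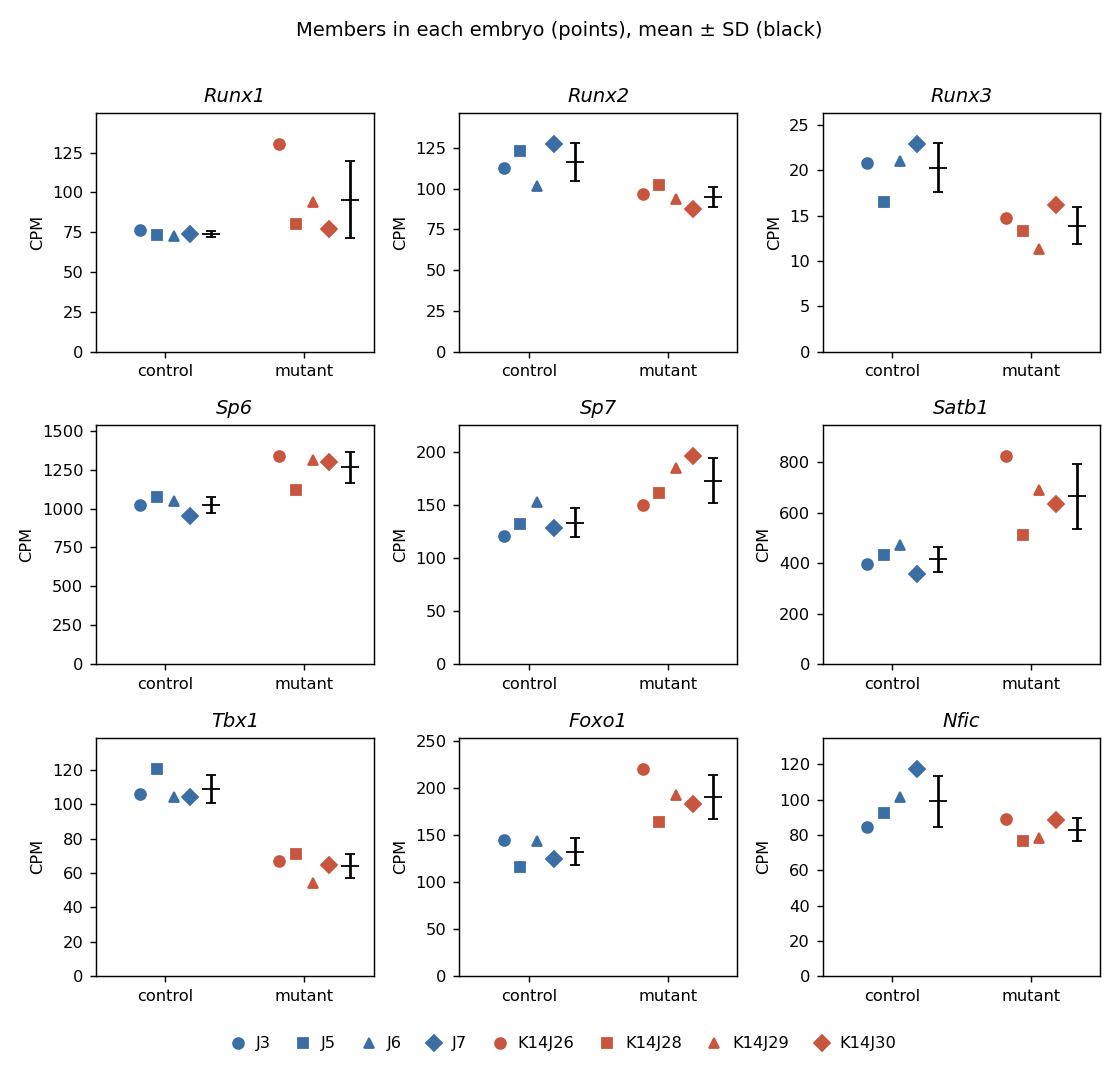
CPM of each gene (vertical axes, each from 0) in the 4 control and 4 mutant embryos, with a marker for each embryo and the group mean ± SD in black. The 2 groups are separate for Runx1, Runx3, Sp6, Satb1, Tbx1 and Foxo1, and overlap for Runx2, Sp7 and Nfic.

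Of the 3 Runx genes, Runx2 and Runx3 passed as lower and Runx1 did not pass. Runx1 (ENSMUSG00000022952, chr16:92601466-92826149, minus strand), which is best known from blood formation and is also used in epithelia, had 76.3, 73.2, 72.4 and 74.1 CPM in controls J3, J5, J6 and J7. Its values in K14J26, K14J28, K14J29 and K14J30 were 130.3, 80.3, 94.2 and 77.2 CPM. All mutants were above all controls, but K14J30 by little and K14J26 by far, and under upper-quartile or library size scaling the groups overlapped. The log2 difference of 0.37 (SE 0.15) did not pass, with an edgeR adjusted p of 0.116, and without K14J26 it was 0.18. Control values of Runx1 were close together, with an SD of 0.03 on the log2 scale, and those of the mutants were not, with an SD of 0.34.

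Runx2 (ENSMUSG00000039153, chr17:44495987-44814797, minus strand), the osteoblast factor, had 113, 123, 102 and 127 CPM in J3, J5, J6 and J7. The mutants K14J26, K14J28, K14J29 and K14J30 followed with 96.5, 102, 93.6 and 87.3 CPM. The groups met at the lowest control, J6, and the highest mutant, K14J28, and the other mutants were below every control. It fell by 18.3%, a log2 difference of -0.29 (SE 0.08, edgeR adjusted p = 0.0436). The adjusted p was over 0.05 without J3 (0.0888), J5 (0.102), J7 (0.107), K14J29 (0.110) or K14J30 (0.0890), and with no count filter (0.0549). Supt3, which overlaps Runx2 on the opposite strand without sharing exonic bases, had a log2 difference of -0.21 (adjusted p = 0.185), and the antisense gene Runx2os1, which shares 519 exonic bases with it, had a mean of 0.579 CPM and a log2 difference of 0.10 (adjusted p = 0.850).

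Runx3 (ENSMUSG00000070691, chr4:135120652-135177990, plus strand), known from T cells, sensory neurons and cartilage, had 20.8, 16.5, 21.01 and 22.9 CPM in J3, J5, J6 and J7. Its values in K14J26, K14J28, K14J29 and K14J30 were 14.8, 13.3, 11.4 and 16.1 CPM. The groups were separate, although K14J30 was close to the lowest control, J5. Runx3 was 1.46-fold lower in the mutant, a log2 difference of -0.55 (SE 0.14, edgeR adjusted p = 0.0293). That p was 0.0774, 0.0671, 0.0875 and 0.0803 without J3, J6, J7 and K14J29. Of 6 T cell genes, Cd8a and Cd3e had at most 0.0481 and 0.0676 CPM in any embryo, and Cd4 a mean of 0.949 CPM in controls and 0.957 CPM in mutants. Lck, the most abundant, averaged 2.47 CPM and fell with Runx3 (log2 difference -0.91, adjusted p = 0.0163, groups separate), a call that was lost without J3, J7 or K14J29 and with the mean log2 CPM of 5 enamel genes in the fit (the enamel covariate), and the part of such cells in the Runx3 difference was not tested.

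The promoters of both lower Runx genes are shown because they hold matches to the Runx motif itself. RefSeq promoters (GRCm38.p6, the 250 bases before the start) were matched by symbol for 7 of the 9 genes, as 14 windows, and none was found for Sp6 and Sp7. The motifs searched, on both strands, were TGTGGT for Runx factors, GGGCGG for Sp factors and TGGGAA for RBPJ, the DNA-binding partner of Notch. Over all 32851 promoters of the table, 4614 held the Runx motif, 10756 the Sp motif and 7094 the RBPJ motif. Among the 14 windows of these genes, 2 held the Runx motif, 5 the Sp motif and 2 the RBPJ motif. The windows below run 5′ to 3′ on the strand of the gene, in lower case with every match in capitals. The Runx2 window (chr17:44814628-44814877, minus strand) has 1 Runx match, written as its reverse complement. Part of this window, with the match, lies inside the Runx2 span given above, which came from GENCODE and not from RefSeq. The upstream Runx3 window (chr4:135120395-135120644, plus strand) has an RBPJ match followed by 2 Runx matches, and the downstream one (chr4:135152295-135152544, plus strand) has 3 Sp matches. The downstream window lies inside the Runx3 span given above. A match of letters is a description of the window and not a site of binding.
Runx2: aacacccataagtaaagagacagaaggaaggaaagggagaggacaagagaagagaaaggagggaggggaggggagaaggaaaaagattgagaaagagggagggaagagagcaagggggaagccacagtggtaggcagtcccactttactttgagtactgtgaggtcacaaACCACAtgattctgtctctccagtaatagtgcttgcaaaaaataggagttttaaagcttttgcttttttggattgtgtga
Runx3 upstream: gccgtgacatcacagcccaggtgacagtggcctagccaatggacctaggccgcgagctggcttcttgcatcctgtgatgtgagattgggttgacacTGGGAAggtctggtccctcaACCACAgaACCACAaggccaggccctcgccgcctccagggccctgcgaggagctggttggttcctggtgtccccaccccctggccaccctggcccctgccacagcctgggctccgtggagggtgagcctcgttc
Runx3 downstream: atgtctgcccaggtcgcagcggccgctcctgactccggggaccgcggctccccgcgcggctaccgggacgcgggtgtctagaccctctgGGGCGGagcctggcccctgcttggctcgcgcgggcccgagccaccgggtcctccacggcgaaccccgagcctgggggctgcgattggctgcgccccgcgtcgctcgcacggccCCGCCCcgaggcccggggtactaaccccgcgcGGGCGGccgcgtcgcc

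Per kilobase of exons, which allows levels of different genes to be set side by side, Runx2 was the most abundant Runx gene in controls, at 13.1 CPM per kilobase, followed by Runx1 at 6.15 and Runx3 at 4.06. Runx1 made up 24.5% to 27.7% of the summed level of the 3 genes in controls and 31.9% to 43.9% in mutants. For Runx2 the share was 52.9% to 59.8% in controls and 44.2% to 55.3% in mutants. The share of Runx3 averaged 17.4% and 13.0%. By the longest transcript, Runx1 averaged 35.3% in controls and 46.7% in mutants and Runx2 50.1% and 42.9%, so the order of these genes in mutants depends on the length used. The shares add up to the whole, so a larger share of Runx1 lowers the others, and they were not tested.

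Proteins that bind Runx factors or act on them were also counted, from a list of 16 genes that were all tested. In the mutant 2 rose, 4 fell and 10 did not pass, beside the 16.1% of all genes that passed. Without J3, J7 or K14J29 these became 0 higher and 1 lower, without J5 0 and 2, and with the enamel covariate 0 and 0. The median log2 difference of the 16 was -0.12 without and -0.15 with the enamel covariate. Zfp423, a zinc-finger factor, fell most, with a log2 difference of -0.99 (SE 0.13, edgeR adjusted p = 0.00695). Twist2 (-0.73), the corepressor Tle1 (-0.70) and Twist1 (-0.33), which with Twist2 restrains Runx2 in bone, also fell, with adjusted p values of 0.0313, 0.0293 and 0.0364. Tle4, another corepressor of the Groucho family, rose with a log2 difference of 0.42 (adjusted p = 0.0243), and Kat6a with 0.29 (adjusted p = 0.0410). Cbfb, the common partner, had 197 to 220.05 CPM in controls and 153 to 186 CPM in mutants, and its log2 difference of -0.24 had an adjusted p of 0.0527.

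Both Sp genes were higher in the mutant. Sp6 (ENSMUSG00000038560, chr11:97013394-97024734, plus strand), a factor of the dental epithelium, had 1025, 1072, 1049 and 954 CPM in J3, J5, J6 and J7. K14J26, K14J28, K14J29 and K14J30 had 1335, 1118, 1311 and 1300.1 CPM. Every mutant was above every control, K14J28 by little, while the other mutants lay close together. Sp6 rose by 23.5%, a log2 difference of 0.30 (SE 0.08, edgeR adjusted p = 0.0295). The adjusted p was over 0.05 without J3 (0.0791), J5 (0.0662), J6 (0.0632), J7 (0.0892), K14J29 (0.0858) or K14J30 (0.0552), and also when only library size was used for scaling (0.135). The non-coding gene Gm11532 on the opposite strand shares 3329 of the 3841 exonic bases of Sp6, and the library kit did not mark strand, so reads from the shared stretch cannot be assigned to either gene from the sequence alone. Gm11532 itself averaged 45.9 CPM in controls and 47.1 CPM in mutants (log2 difference 0.04, adjusted p = 0.882).

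Sp7 (ENSMUSG00000060284, chr15:102356606-102367182, minus strand), also called osterix, had 120.3, 132, 152 and 128 CPM in J3, J5, J6 and J7. In K14J26, K14J28, K14J29 and K14J30 the values were 149.8, 161, 184 and 196 CPM. The only overlap was between J6, the highest control, and K14J26, the lowest mutant. Sp7 rose by 29.7%, a log2 difference of 0.38 (SE 0.10, edgeR adjusted p = 0.0390). Its adjusted p was 0.106 without J3, 0.104 without J5, 0.114 without J7, 0.106 without K14J29 and 0.0776 without K14J30, and it was 0.174 by library size only and 0.0615 by upper-quartile scaling.

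Of 5 bone markers, 3 rose, where 9.52% of all tested genes did. Without J3, J7 or K14J29 or with 5 enamel genes as a covariate none of them passed, and without J5 1 did. The summed level of the 5 was 353, 464, 509 and 427 CPM in J3, J5, J6 and J7 and 923, 803, 789 and 614 CPM in K14J26, K14J28, K14J29 and K14J30, so that the groups were separate. Within the mutants the order was not that of Sp7, since K14J26 had the highest sum and the lowest Sp7 and K14J30 the lowest sum and the highest Sp7. Ibsp, the most abundant of the 5, did not pass, and its mean of 203 CPM includes 448 CPM in K14J28 and 141 to 169 CPM in the other mutants, against 164 to 189 CPM in controls. The part of bone cells in the Sp7 difference was not tested. Bglap, Bglap2, Phex and Ibsp are also counted below among the odontoblast and osteoblast genes.

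Satb1 (ENSMUSG00000023927, chr17:51736187-51833290, minus strand), which folds chromatin into loops, had the largest rise among the 9 genes. Its CPM was 396, 432, 472 and 359 in J3, J5, J6 and J7. In K14J26, K14J28, K14J29 and K14J30 it was 823, 509.9, 690 and 635. K14J26 was highest and K14J28 lowest among the mutants, and none of them reached down to the highest control, J6. Satb1 rose by 60.3%, a log2 difference of 0.68 (SE 0.14, edgeR adjusted p = 0.0187), and without K14J26 the difference was 0.56 (adjusted p = 0.0148). Without J3, J5, J7 or K14J29 the adjusted p was 0.0589, 0.0515, 0.0627 and 0.0612. Inside the Satb1 locus, the unclassified genes Gm36931 and E430014B02Rik on the same strand had log2 differences of 0.78 (adjusted p = 0.0174) and 0.92 (adjusted p = 0.0312), and their reads cannot be told apart from unspliced Satb1 RNA. C230085N15Rik, Gm37248 and Gm6934, also in the locus and each at a mean under 1 CPM, had log2 differences of 1.05, 0.88 and 0.87 and did not pass (adjusted p = 0.0832, 0.257 and 0.177).

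Foxo1 (ENSMUSG00000044167, chr3:52268336-52353221, plus strand) had 145, 116, 144 and 124.8 CPM in J3, J5, J6 and J7. K14J26, K14J28, K14J29 and K14J30 had 221, 164, 193 and 183 CPM. The order of the mutant embryos was that of Satb1, with K14J26 highest and K14J28 lowest, and the groups did not overlap. Foxo1 rose by 43.5%, a log2 difference of 0.52 (SE 0.11, edgeR adjusted p = 0.0175). The adjusted p was 0.0522 without J5, 0.0618 without J7 and 0.0584 without K14J29. Of 15 textbook target genes of FoxO factors, 14 were tested, 2 rose and 12 did not pass, a share of 14.3% beside the 9.52% of all genes that rose. None of the list passed without J3, J7 or K14J29 or with the enamel covariate, and 1 gene without J5. The cell cycle inhibitor Cdkn1a had a log2 difference of 1.36 (SE 0.32, adjusted p = 0.0247), from a mean of 227 to 585 CPM, and the insulin receptor gene Insr 0.60 (SE 0.13, adjusted p = 0.0207). No gene of that list passed as lower by edgeR or DESeq2, or at an unadjusted p under 0.05 in the main edgeR fit. With the enamel covariate, 5 were lower and 2 higher at that unadjusted p. The median log2 difference of the list was 0.24 in the main fit and -0.14 with this covariate. A single gene was lower at that p by library size only, by upper-quartile scaling, and where at least 50 counts in 4 embryos were required. The same count was found without J7 and without K14J26.

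Tbx1 (ENSMUSG00000009097, chr16:18580979-18590671, minus strand), a gene of the 22q11 deletion syndrome in humans, had the largest fall of the 9 genes. It had 106, 121, 104 and 104 CPM in J3, J5, J6 and J7. Among mutants K14J26, K14J28, K14J29 and K14J30 the values were 67.1, 70.9, 54.4 and 64.7 CPM. The highest mutant stayed far below the lowest control, J5 stood above the other controls, and K14J29 below the other mutants. Tbx1 was 1.69-fold lower, a log2 difference of -0.76 (SE 0.09, edgeR adjusted p = 0.00517), which was rank 40 by p among the 17129 genes. With any 1 embryo left out the difference lay between -0.81 and -0.68 and the adjusted p between 0.00328 and 0.0262.

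The windows before the starts of Satb1, Foxo1 and Tbx1 are shown next, for Satb1 and Tbx1 those of the 5 and 2 windows that hold an Sp match. Satb1 (chr17:51832648-51832897, minus strand) has 3 Sp matches, of which the upstream pair shares a base and the last follows directly. Foxo1 (chr3:52268087-52268336, plus strand) has 2 and Tbx1 (chr16:18588900-18589149, minus strand) has 1, all written as the reverse complement CCGCCC. The Satb1 and Tbx1 windows shown lie inside the spans given above for these genes. None of the 3 windows shown holds the Runx or the RBPJ letters, while another Satb1 window holds 1 RBPJ match.
Satb1: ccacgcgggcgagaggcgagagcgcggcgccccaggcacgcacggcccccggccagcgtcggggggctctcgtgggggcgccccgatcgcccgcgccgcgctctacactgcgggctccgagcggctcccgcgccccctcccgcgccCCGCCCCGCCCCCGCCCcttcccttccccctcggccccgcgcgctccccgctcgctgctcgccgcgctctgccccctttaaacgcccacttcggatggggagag
Foxo1: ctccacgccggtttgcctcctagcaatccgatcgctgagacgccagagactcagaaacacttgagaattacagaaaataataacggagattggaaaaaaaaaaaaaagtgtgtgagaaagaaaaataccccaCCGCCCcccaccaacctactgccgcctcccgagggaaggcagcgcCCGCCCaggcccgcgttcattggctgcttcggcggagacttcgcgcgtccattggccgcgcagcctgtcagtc
Tbx1: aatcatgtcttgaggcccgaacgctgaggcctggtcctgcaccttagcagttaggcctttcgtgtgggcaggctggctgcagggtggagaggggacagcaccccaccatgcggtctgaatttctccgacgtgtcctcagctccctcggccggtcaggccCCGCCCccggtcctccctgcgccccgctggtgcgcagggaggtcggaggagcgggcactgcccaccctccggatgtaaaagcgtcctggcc

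Nfic (ENSMUSG00000055053, chr10:81396186-81455635, minus strand) had 84.4, 92.4, 101 and 118 CPM in J3, J5, J6 and J7. Its values in K14J26, K14J28, K14J29 and K14J30 were 88.9, 76.7, 78.0 and 88.6 CPM. The controls spread more widely than the mutants and reached into their range through J3. The log2 difference of -0.25 (SE 0.11) did not pass, with an edgeR adjusted p of 0.121.

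**Figure D2:**
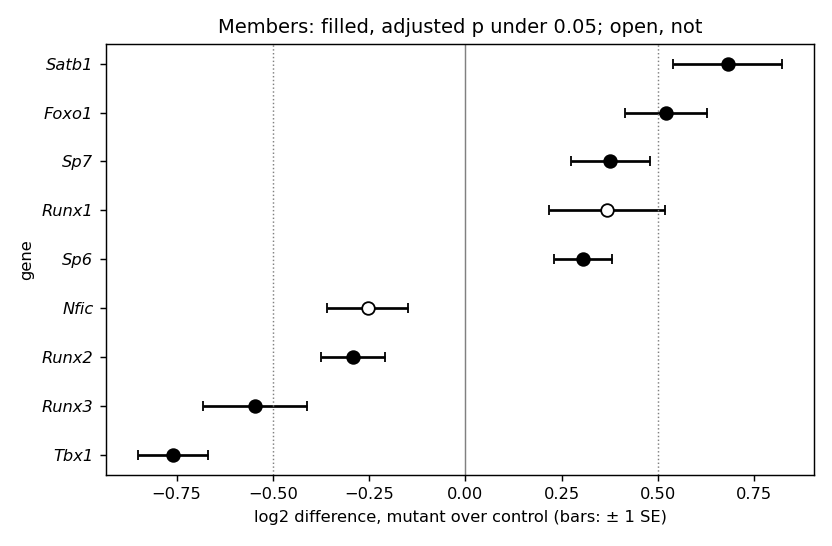
Log2 difference of each gene, mutant over control (horizontal axis, bars ± 1 SE of the edgeR fit over 8 embryos), with filled points for an adjusted p under 0.05 and dotted lines at an absolute log2 of 0.5. Differences run from -0.76 for Tbx1 to 0.68 for Satb1, and Runx1 and Nfic are the open points.

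Other genes of the same families were counted from a list of 26, of which 19 were tested. By edgeR 8 fell, none rose and 11 did not pass, and the median log2 difference of the 19 was -0.38, against 0.01 over all tested genes, of which 6.61% fell. The 8 became 5 without J3 or J7, 4 without K14J29 and 2 with the enamel covariate, and without K14J28 there were 10 lower and 2 higher. Their median was -0.22 without J7 and -0.12 with the enamel covariate. At an unadjusted p under 0.05, 2 were higher and 10 lower, and DESeq2 called 0 higher and 9 lower. The relatives of Tbx1 that fell were Tbx2, with a log2 difference of -0.89 (SE 0.15, adjusted p = 0.0115), and Tbx3, with -0.84 (SE 0.11, adjusted p = 0.00717). The relatives of Sp6 and Sp7 with the largest falls were Sp5 (-1.64, SE 0.38, adjusted p = 0.0249) and Sp9 (-1.15, SE 0.21, adjusted p = 0.0134), both low, at means of 0.605 and 8.52 CPM in controls. Sp2, Sp3, Foxo6 and Nfix also fell, with log2 differences of -0.48, -0.24, -0.76 and -0.43. So the other Sp genes that passed moved against Sp6 and Sp7, while Tbx2 and Tbx3 moved with Tbx1. Foxo3 and Foxo4 had differences of 0.23 and 0.08 and did not pass.

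Levels per length put Sp6 apart from the other genes. It stood at 267 ± 13.3 (SD, n = 4) CPM per kilobase of exons in controls and 329.6 in mutants. Sp7 followed at 39.2 ± 4.05 in controls, Tbx1 at 30.9 ± 2.29 and Satb1 at 21.8 ± 2.55, each above the next in every control embryo. Foxo1 (15.3), Nfic (14.9) and Runx2 (13.1) overlapped and have no order beyond their spread, and Runx1 and Runx3 were below them in every control. In mutants, by exon length, Satb1 (34.9) and Foxo1 (22.0) passed Tbx1 (18.3), and Foxo1 and Tbx1 overlapped slightly. The order depends on the length used. With the longest transcript in place of all exons, Satb1 came to rank 2 and Sp7, overlapping Tbx1, to rank 4 in controls. By that length Satb1 (66.4) was already above Tbx1 (43.3) in controls. In mutants Foxo1 (22.0) stayed below Tbx1 (25.6, rank 4) by that length, with overlap. The exonic bases annotated for Satb1 number 19027 and its longest transcript 6243.

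**Figure D3:**
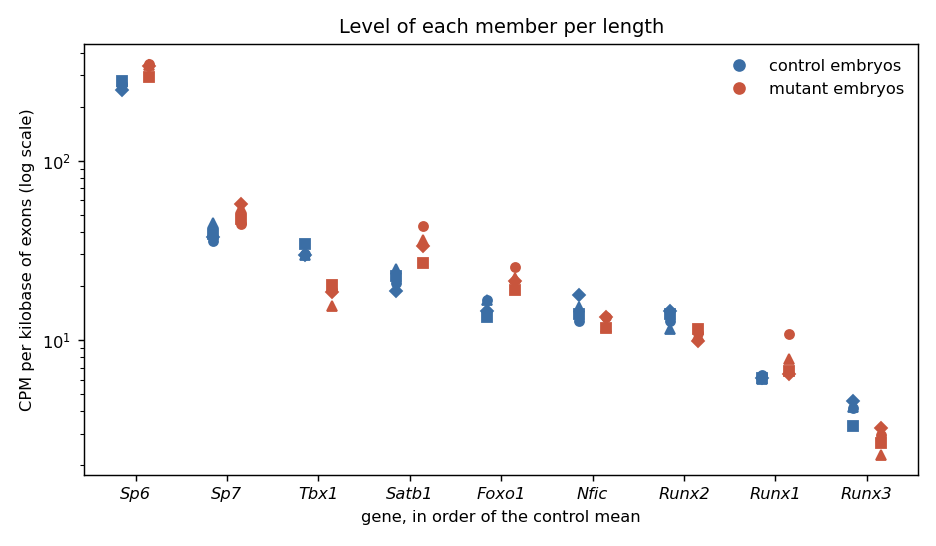
CPM per kilobase of exons (logarithmic vertical axis) of each gene in the 4 control (blue) and 4 mutant (red) embryos, in the order of the control means. Sp6 is the most abundant in all embryos, and Tbx1 falls from rank 3 in controls to rank 5 in mutants. By the longest transcript (not shown) Tbx1 is at rank 4 in mutants.

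The mutant embryos did not depart from the controls to the same extent. K14J26 was the highest of the mutants for Runx1, Sp6, Satb1, Foxo1 and Nfic, and K14J28 the lowest for Sp6, Satb1, Foxo1 and Nfic. Relative to the control mean of log2 CPM, Satb1 stood at 0.997 in K14J26 and 0.31 in K14J28, and Foxo1 at 0.74 and 0.32. Sp7 had another order, at 0.56 in K14J30 and 0.18 in K14J26. Runx3 and Tbx1 deviated most in K14J29, at -0.82 and -0.995.

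**Figure D4:**
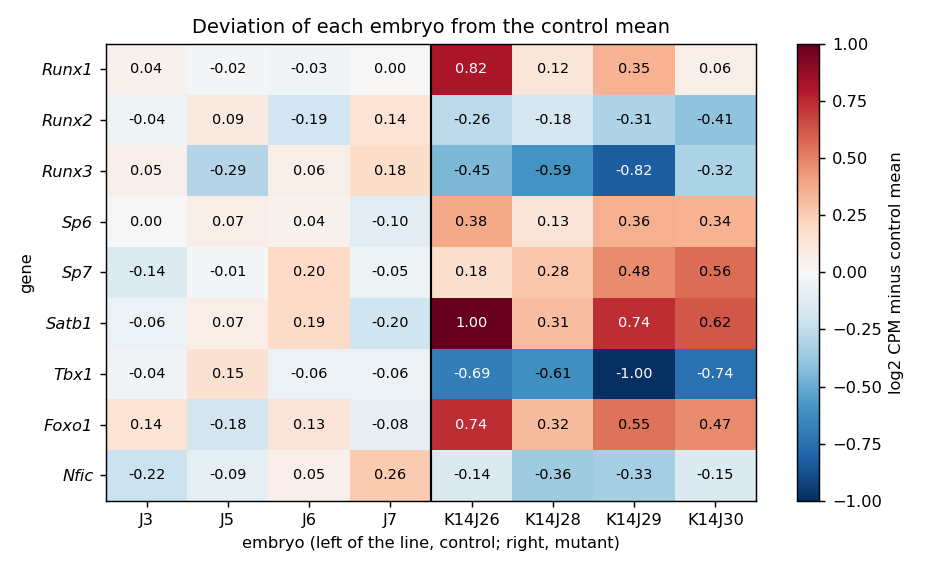
Log2 CPM of each gene in each embryo minus the control mean of that gene (colour and printed value), with controls to the left of the line and mutants to the right. Runx1, Sp6, Sp7, Satb1 and Foxo1 are positive and Runx2, Runx3, Tbx1 and Nfic negative in all 4 mutants, and Satb1 in K14J26 has the largest positive value.

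Enamel genes separated the mutant embryos in a similar order. The 14 genes of enamel and ameloblasts summed to 949, 2257, 3571 and 809 CPM in J3, J5, J6 and J7. In K14J26, K14J28, K14J29 and K14J30 they summed to 115577, 4105, 26568 and 10209 CPM. K14J26 was highest and K14J28 lowest among the mutants, as for Satb1 and Foxo1. Of the 13 tested, 9 rose, none fell by edgeR or DESeq2, and 4 did not pass. At an unadjusted p under 0.05 none was lower by DESeq2 or in the main edgeR fit. With the enamel covariate 1 was lower and 3 higher at that p, and 2 passed as higher. That covariate is the mean of Amelx, Ambn, Enam, Mmp20 and Klk4, which are themselves in this list. The loss of their calls in that fit was thus built in and is not a result about the list. The largest differences in the main fit were those of Enam (5.61), Ambn (5.32), Acp4 (4.18) and Amelx (4.17). Their edgeR adjusted p values were 0.0244, 0.0279, 0.0299 and 0.0299. Where 9 genes of this list and 9.52% of all genes were higher, the count for the list was 2 without J3, J5, J7 or K14J29, 5 without J6 and 3 with robust quasi-likelihood. With the enamel covariate, which was 4.73 to 6.87 in controls and 6.94 to 11.8 in mutants, the log2 differences of Satb1, Foxo1, Sp6 and Runx1 were 0.18, 0.27, 0.14 and -0.09 (adjusted p = 0.253, 0.245, 0.380 and 0.777). That of Tbx1 was -0.71 (adjusted p = 0.0343), and those of Runx3, Sp7 and Runx2 were -0.48, 0.37 and -0.22 (adjusted p = 0.217, 0.197 and 0.340). The covariate itself differs between the groups, so its part and that of the genotype cannot be told apart in this fit.

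Genes of odontoblasts and osteoblasts, several of which Runx2 and Sp7 are known to act on, also rose in 7 of 12 cases, where 9.52% of all tested genes did, and 5 did not pass. No gene of the list was higher by this test without J3, J7 or K14J29 or with the enamel covariate, and 1 was without J5. Among those 7, Bglap (osteocalcin), Dspp, Bglap2 and Col1a2 had the largest differences, of 2.56, 2.31, 1.91 and 1.43 (edgeR adjusted p = 0.0165, 0.0247, 0.0217 and 0.0238). No gene of the list passed as lower by edgeR or DESeq2, or at an unadjusted p under 0.05 in the main edgeR fit. DESeq2 gave 1 lower gene an unadjusted p under 0.05. So did edgeR by library size only, with no count filter, without J6, or without J6 and J7. With Xist as a covariate or without K14J28, edgeR gave 2 lower genes such a p. Mepe, at a mean of 1.17 CPM in controls, had a log2 difference of -1.64 (edgeR adjusted p = 0.151). Runx2 itself was lower and Sp7 higher beside them. The summed level of the 12 was 7099 to 12657 CPM in controls and 12621 to 36505 CPM in mutants, with means of 9853 and 23847 CPM. Most of it came from the collagen genes Col1a1 (means of 5111 CPM in controls and 10967 CPM in mutants) and Col1a2 (2658 and 7143 CPM). Dmp1, Alpl, Ibsp, Spp1 and Mepe were the 5 that did not pass.

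Marker genes of the tissue were present in all embryos. Krt5, the most abundant of 6 dental epithelium markers, averaged 3176 CPM, and Col3a1, that of 6 mesenchyme markers, 1509 CPM. The epithelium markers summed to 5162, 5014, 5371 and 4657 CPM in J3, J5, J6 and J7 and to 8083, 5486, 6926 and 6219.6 CPM in K14J26, K14J28, K14J29 and K14J30, with 1 of the 6, Krt14, higher (log2 difference 0.96, adjusted p = 0.0217) and 5 not passing. Epcam had a log2 difference of -0.51 (edgeR adjusted p = 0.0527), with every mutant below every control. DESeq2 called 4 of the 6 higher and 1 lower, beside 2244 higher and 1718 lower of all 17129 genes. Beside the single edgeR call, 9.52% of all genes were higher, and it was lost without J3, J5, J7 or K14J29 and with the enamel covariate. Sp6, Satb1 and Foxo1 were higher in the same embryos, and the part of the epithelial share in their differences was not tested. The mesenchyme markers summed to 2701 to 3306 CPM in controls and 2612 to 2866 in mutants, with Pdgfra higher (0.42), Pdgfrb (-0.39) and Twist1 (-0.33) lower and 3 not passing, beside the 16.1% of all genes that passed. No mesenchyme marker passed without J3, J5 or J7 or with the enamel covariate, and 1, lower, without K14J29.

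Markers of other cells differed in level. The 6 T cell genes summed to 3.58 to 4.90 CPM in controls and 2.79 to 3.22 in mutants, and of the 2 tested Lck alone passed, as given beside Runx3, where 6.61% of all genes were lower, while 1 gene did not pass and 4 were under the count filter. Skeletal muscle genes reached 278 CPM in J6 and 148 CPM in J7, and elsewhere no more than 14.9 CPM. Acta1 was the most abundant of these 5 genes, at a mean of 25.5 CPM, and Ckm was lower in the mutant (-4.69, adjusted p = 0.0382) while 4 did not pass, beside the 6.61% of all genes that were lower. Of the 5, 4 were lower by DESeq2, as were 1718 of all 17129 genes, and 4 at an unadjusted edgeR p under 0.05, and edgeR called none without J6, J7, K14J29 or K14J30 or with robust quasi-likelihood. Erythroid genes summed to 260 to 642 CPM over the 8 embryos and endothelial genes to 185 to 260 CPM. Osteoclast genes stood at 1278 CPM in K14J28 and between 178 and 417 CPM elsewhere, with Ctsk the most abundant at a mean of 244 CPM. Among 6 leukocyte, 5 osteoclast, 4 erythroid, 4 endothelial, 4 Schwann cell and 4 cartilage genes, none had an adjusted p under 0.05 by edgeR, DESeq2 called 1 endothelial gene lower, and 1 osteoclast gene was higher and 1 endothelial gene lower at an unadjusted p under 0.05. The most abundant of them were Csf1r, Ctsk, Hba-a1, Cdh5, Mbp and Col2a1, at means of 42.1, 244, 269, 71.3, 52.2 and 11.2 CPM.

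Xist, the RNA of the inactive X chromosome, was abundant only in the mutants K14J28 (1930 CPM) and K14J29 (1468 CPM), with no other embryo above 1.09 CPM. With its level as a covariate Satb1, Foxo1, Sp6 and Tbx1 kept an adjusted p under 0.05. Runx3, Runx2 and Sp7 did not, with log2 differences of -0.39, -0.34 and 0.38 (adjusted p = 0.113, 0.0642 and 0.0888).

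The genes whose log2 CPM was most like that of each member over the 8 embryos were looked up, at most 2 for each, among genes with a mean of at least 5 CPM. The correlations pool both groups, so they contain the difference between them as well as the order within them. For Satb1 these were Spns2 and Ripor3 (Pearson r = 0.996 and 0.995), and Runx1 had an r of 0.995 with Lnx2. Sp6 was nearest to St3gal6 (0.995) and Kmt5c (0.994), Sp7 to Stbd1 (0.982) and Pik3r1 (0.980), and Foxo1 to Dnajc16 (0.985) and Rnf25 (0.982). Tbx1 was nearest to Bod1 (0.991) and Zfp868 (0.989), Runx2 to Unc5c (0.980) and Mgat4b (0.973), and Nfic to Mllt6 (0.956) and Fgd1 (0.953). Runx3 was nearest to Twist1 (0.980) and to Sp9 (0.972), which were also among the Runx modulators and the Sp relatives above. Ripor3 rose from a mean of 7.03 to 32.0 CPM (log2 difference 2.19, adjusted p = 0.0245).

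**Figure D5:**
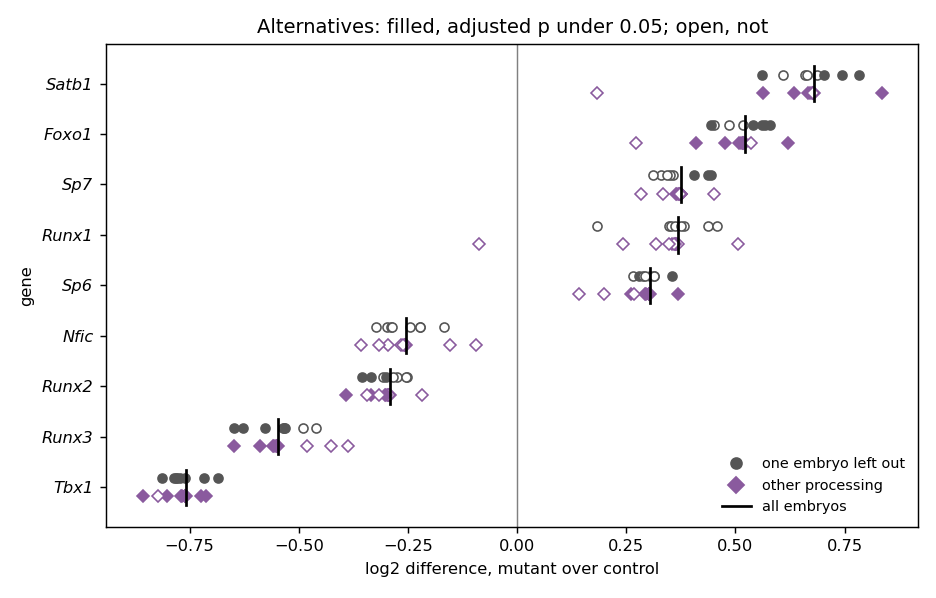
Log2 difference of each gene, mutant over control (horizontal axis), with all 8 embryos (black line), with 1 embryo left out in turn (grey circles) and under the other processing alternatives (purple diamonds), filled for an adjusted p under 0.05. Runx1 with the enamel covariate is the only point on the other side of 0, and Tbx1 is filled in all 8 fits with 1 embryo left out.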

How the data were processed

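RNA of pooled left and right lower molars of each embryo was made into TruSeq RNA v2 poly-A libraries, a kit that does not mark strand. Raw counts per Ensembl gene were deposited by the authors, from trimmed reads aligned to GRCm38 by STAR. The methods name GenomicRanges for counting and the submitters' processing notes featureCounts. The Ensembl release and the handling of strand and of reads with several matches are not given in the sources used here. Symbols, positions and exon lengths came from GENCODE M21 (42548 of 43629 identifiers). A gene was tested if 2 or more of the 4 control or of the 4 mutant embryos had 10 counts or more. Counts were normalized by TMM and tested with edgeR 4.0.16 (quasi-likelihood, no covariates, Benjamini-Hochberg adjustment over 17129 genes) in R 4.3.3. SE is the absolute log2 difference over the square root of F, and CPM uses the counts of tested genes. In simulated counts with the same dispersion for every gene, the test recovered 63.1% of 1.5-fold, 91.0% of 2-fold and 98.5% of 4-fold changes. Of its calls there, 4.02% were false. Enamel genes such as Ambn and Enam varied more between embryos than was simulated, so the check does not cover them.

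The members and lists were chosen with earlier results of these data known. Genes named are the members, Jag1, tested genes overlapping a member, up to 4 called genes with the largest differences per list, the most abundant gene per marker list, and up to 2 of the most similar genes per member. Others, such as Cbfb, Sp2, Sp3, Foxo3, Foxo4, Foxo6, Nfix, Xist and further markers, were named after their values were seen. Alternatives were other scalings, filters and covariates, DESeq2 1.42.0, unadjusted p with a minimum difference and leaving out embryos. Litter and sex are not given in the labels, and no paired analysis was made. Xist was abundant only in K14J28 and K14J29, both mutants, so by this RNA the groups were not balanced in sex.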

Additional observations from a re-analysis of the deposited data

Results flagged for a closer look

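Sp6 in K14J28, at 1118 CPM, stood apart from the other mutants, which had 1300.1 to 1335 CPM, with a gap to the nearest of 0.839 of the range of the group. Tbx1 in J5, at 121 CPM, stood apart from the other controls, at 104 to 106 CPM, with a gap of 0.890 of the range. A gap above the tabulated critical ratio for 4 values (Dixon) marks such an embryo, and chance marks about 1 in 20 groups. Here 2 of 20 groups, those of the 9 genes and Jag1, were marked.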

How the results depend on the processing

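All log2 differences of the 9 genes and Jag1 kept their direction under 19 alternatives, except that of Runx1 with the enamel covariate (-0.0873). Calls were less stable, and the cause was not tested. Among the 9 genes, 4 higher and 3 lower passed. These were 2 and 3 with library size only, 3 and 1 with Xist as a covariate, 0 and 1 with the enamel covariate, 0 and 0 without J6 and J7, and 2 and 2 by unadjusted p with an absolute log2 difference of at least 0.5. With 1 embryo left out the counts ran from 0 to 4 higher and from 1 to 3 lower. Over all genes 1631 higher and 1133 lower passed, with 59.0% of calls higher. These became 855 and 1060 (44.6%) by library size only and 1363 and 1448 (48.5%) by upper-quartile scaling, and which direction had more calls thus changed with the scaling. DESeq2 called 2244 and 1718, the Xist covariate 1414 and 733, the enamel covariate 186 and 112, and the fit without J6 and J7, which held 6 embryos, 3 and 4. Counts with 1 embryo left out ran from 250 to 2479 higher and from 170 to 1843 lower. Over all alternatives the adjusted p of Tbx1 was over 0.05 only without J6 and J7 (0.114), and its log2 difference there was -0.82. The adjusted p of Satb1 ran from 0.000219 to 0.253, that of Foxo1 from 0.000378 to 0.245 and that of Runx1 from 0.0586 to 0.777. The lowest count of the 9 genes in any embryo was 307, and the part of depth in the calls was not tested. No paired analysis was possible because the labels give the groups no shared numbers.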
